A study of Mus musculus with 3 samples.

Results

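The histone genes of NIH3T3 cells, an established line of mouse embryo fibroblasts, were described from 3 UMI-RNAseq libraries. The members were the genes whose name begins with Hist1h to Hist4h, H1f, H2af, H2b, H3f or H4, without names that contain -ps. The rule found 88 of the 55573 genes listed, and it used no measured value. Of these, 69 carry a Hist name and were taken as replication-dependent histone genes, and the other 19 were taken as replacement histone genes. The libraries, called library 1, library 2 and library 3 after their replicate numbers, came from cells grown in DMEM with serum and without treatment, so all stand for 1 condition and the comparisons lie between genes. Separate cultures are named in neither labels nor methods, and the SD given here may therefore be technical. Levels are given as deposited, in FPKM, which divides the fragments of a gene by its length in kilobases and scales them to 1000000 counted fragments.

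Histones are the proteins around which DNA is wound. Pairs of H2A, H2B, H3 and H4 form the core of the nucleosome, and the linker histone H1 binds where DNA enters and leaves it. Replication-dependent genes lie in clusters, are transcribed in S phase and supply the bulk of histones for new DNA. Their mRNA is cut after a short stem-loop that the protein SLBP binds, and it carries no poly(A) tail. Replacement histones are made throughout the cell cycle from ordinary polyadenylated mRNA and exchange into chromatin outside replication. The labels name an Illumina TruSeq RNA kit, a type of kit that captures RNA by its poly(A) tail, and the methods call the assay mRNA sequencing, but neither states the capture step, and the label text also mentions retinas. How far capture set the levels below was not tested.

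The stem-loop was searched as GG, any pair of bases, CTT, any base, T, any base, AG, any pair of bases and CC, with the first 6 of its 16 bases pairing with the last 6, in annotated transcripts. It was found in 46 of the 69 replication-dependent genes and in 2 of the 19 replacement genes, H2afx and H2bfm. The search covered the sense strand only. Outside the histone list, 0.0365% of protein-coding genes (8 of 21897) held it. It took 9 forms, and the commonest, with 27 genes, is the one in Hist1h1c, Hist1h2be and H2bfm. The sequences below are shown as examples of the pattern in both classes, which were set by name and not by the stem-loop. Capitals mark the stem-loop, in DNA letters, and the small letters are up to 5 flanking transcript bases on each side.
Hist1h1c: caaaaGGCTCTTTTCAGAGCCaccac
Hist1h4h: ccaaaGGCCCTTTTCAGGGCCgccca
Hist1h4i: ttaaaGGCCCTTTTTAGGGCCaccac
Hist1h3g: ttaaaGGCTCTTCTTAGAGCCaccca
H2afx: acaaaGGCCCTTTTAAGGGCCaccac
H2bfm: tcaaaGGCTCTTTTCAGAGCCaccac

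In the GRCm38 build these stem-loops lie at chr13:23739512-23739527 on the plus strand for Hist1h1c, chr13:23531458-23531473 on the plus strand for Hist1h4h, chr13:22040966-22040981 on the minus strand for Hist1h4i and chr13:23535889-23535904 on the plus strand for Hist1h3g. They lie at chr9:44335240-44335255 on the plus strand for H2afx and at chrX:136928167-136928182 on the plus strand for H2bfm. The poly(A) signal, AATAAA or ATTAAA, was searched on the same strand in the last 50 bases of annotated transcripts. It was found in 12 of the 19 replacement genes and in 17 of the 69 replication-dependent genes, against 80.7% of protein-coding genes outside the list. The next sequences run from the signal, in capitals, toward the annotated 3′ end, for at most 20 bases beyond it. They are shown for H3f3b and H1f0, replacement genes of high level, and for a pair of genes that hold a stem-loop as well.
H3f3b: AATAAActagtaagtttggagttttt
H1f0: AATAAAactggaaaggaaaaaa
Hist1h1c: AATAAAaagcgtttagttttcattca
H2afx: ATTAAAggatcgtttggttttgtttt

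Hist1h1c and H2afx hold a stem-loop and, further on in the same annotated transcript, a poly(A) signal. The signals lie at chr11:116021999-116022004 on the minus strand for H3f3b and chr15:79030483-79030488 on the plus strand for H1f0. Those of Hist1h1c and H2afx lie at chr13:23740342-23740347 and chr9:44336043-44336048, both on the plus strand. Matches of this kind are descriptions of the annotation and not of the ends of the RNA in these cells.

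Replacement histone genes were far higher than replication-dependent genes in each library. Summed over the 19 replacement genes, the level was 1966 FPKM in library 1, 1984 in library 2 and 1920 in library 3. Summed over the 69 replication-dependent genes it was 55.4, 55.5 and 54.3 FPKM. The sums thus stood in a ratio of 35.5, 35.8 and 35.3, with a log2 ratio of 5.15 ± 0.01 (SD, n = 3 libraries). This SD covers the spread between libraries only. Other settings moved the value further, from 2.77 as a difference of mean log2(FPKM + 1) to 6.33 without Hist1h1c. Replication-dependent genes made up 2.74% ± 0.0168 (SD, n = 3) of the FPKM of the whole list. No p-value is given for these sums, since the members were chosen with earlier results of these data known. Fewer cells that carry a histone mRNA and less of it in each cell cannot be told apart in such bulk libraries.

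The share of genes above a limit depended on the limit. Of the replication-dependent genes, 6 of 69 had a mean FPKM of at least 1, and of the replacement genes 11 of 19. Over all genes listed the share was 23.2%, and over protein-coding genes 49.2%. Among the replication-dependent genes Hist1h1c alone reached 10 FPKM, against 8 replacement genes, 14.8% of all genes and 35.6% of protein-coding genes. A mean of at least 0.1 FPKM was reached by 47 of 69 and 12 of 19 genes, beside 34.7% of all and 58.7% of protein-coding genes. FPKM above 0 in every library was found for 38 of 69 and 12 of 19 genes, beside 34.0% of all and 61.1% of protein-coding genes. By these 2 low limits the replication-dependent genes were thus detected about as often as protein-coding genes, while fewer reached 1 or 10 FPKM. A short gene passes 0.1 FPKM on few fragments, as Hist1h2ak, of 393 bases, did with 0.120 FPKM on 2 fragments over all libraries. The median of the mean FPKM was 0.202 for the replication-dependent genes and 4.23 for the replacement genes, beside 0.804 for protein-coding genes. The value of 4.23 is that of H3f3c, annotated as a processed pseudogene. Over the 16 replacement genes annotated as protein coding the median was 10.6 FPKM, and 9 of them reached 1 FPKM. With H2afx, whose mRNA is known in both forms, counted as replication-dependent, the log2 ratio of the sums fell to 4.69. Rescaled to TPM, which sums to 1000000 in each library, 11 replication-dependent genes reached the limit of 1, so this count depends on the scale.

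**Figure D1:**
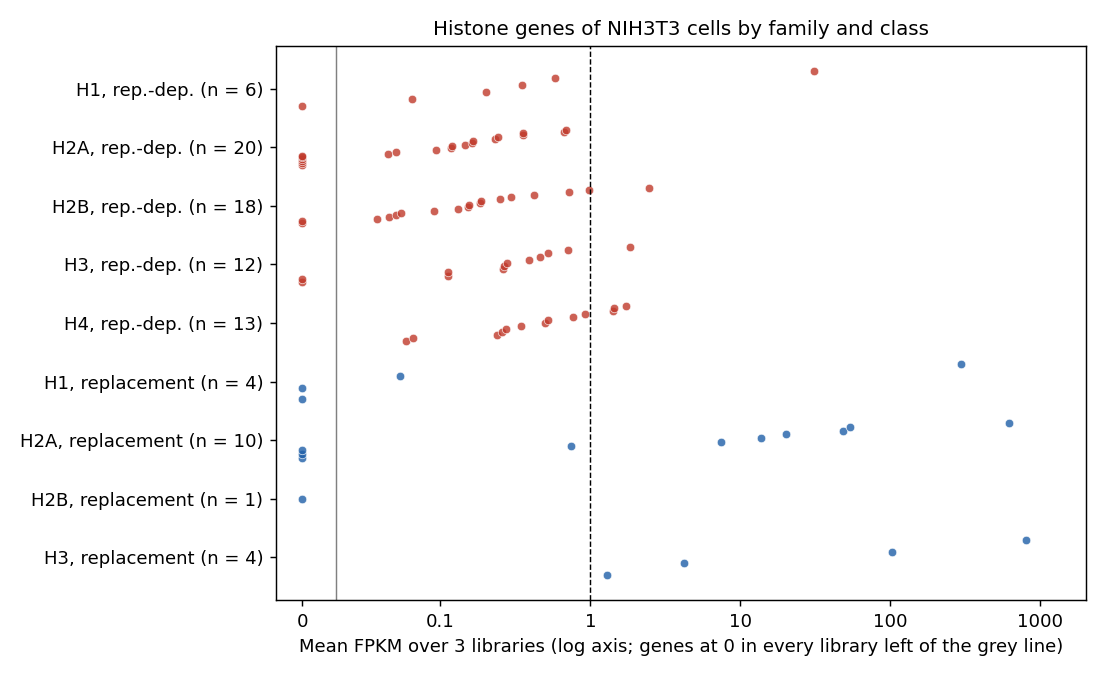
Mean FPKM over the 3 libraries (x axis, log scale, genes at 0 throughout being drawn left of the grey line) of each of the 88 genes, in rows by family and class, with replication-dependent genes in red and replacement genes in blue. Of the red points, 63 of 69 lie left of the dashed line at 1 FPKM and Hist1h1c, at 30.8, lies furthest right, while the blue H1, H2A and H3 rows reach 293.6, 614.1 and 797.4.

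Depth bears on these values. The library totals, recovered from the FPKM values, were 14423209, 13959723 and 14307241 fragments. The 69 replication-dependent genes took 1015, 988 and 967 of these fragments in the order of the libraries. These are 0.00704% of the library (exact Clopper-Pearson 95% interval 0.00661% to 0.00748%), 0.00708% (0.00664% to 0.00753%) and 0.00676% (0.00634% to 0.00720%), and the intervals overlap. Without Hist1h1c, 309, 316 and 297 fragments were left for 68 genes, and the median gene of the class had 6 fragments over all 3 libraries. The 19 replacement genes rested on 36742, 35593 and 36135 fragments. Intervals cover counting error only. Single replication-dependent genes that rest on a few fragments can therefore not be ordered at this depth.

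Among the H3 genes, the replacement pair H3f3a and H3f3b, which encode the same protein, stood highest. H3f3b (ENSMUSG00000016559, chr11:116021912-116027962, minus strand) had 803.1, 786.2 and 802.7 FPKM in libraries 1, 2 and 3, a mean of 797.4 ± 9.65 (SD, n = 3). It was the highest histone gene and ranked 83 among all genes. H3f3a (ENSMUSG00000060743, chr1:180800832-180813943, minus strand) had 94.2, 105.6 and 106.2 FPKM, a mean of 102.0 ± 6.79 (SD, n = 3). The pair therefore drew 11.3% ± 0.737 (SD, n = 3) of its FPKM from H3f3a. H3f3b lay above H3f3a by a factor of 8.53, 7.45 and 7.56, a log2 ratio of 2.97 ± 0.11 (SD, n = 3). The size depends on the gene length used, with a log2 ratio of 3.69 for fragments not divided by length and 3.87 with the longest isoform. An exact permutation test that flips signs, two-sided, gave p = 0.25, and 0.25 after Benjamini-Hochberg adjustment over 2 ratios, which is the smallest p that 3 libraries allow.

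The other members counted as replacement H3 are not annotated as protein coding. H3f3c is a processed pseudogene on chromosome 2, with 2.02, 4.71 and 5.95 FPKM. H3f3aos is an antisense RNA whose annotation overlaps that of H3f3a over 160 bases, with 1.42, 1.33 and 1.12 FPKM. Strand use in counting is not stated, so reads from H3f3a and H3f3aos cannot be told apart there. All replacement H3 genes together exceeded the 12 replication-dependent H3 genes by a factor of 175.7, 160.0 and 225.4, a log2 ratio of 7.53 ± 0.26 (SD, n = 3). The replication-dependent H3 genes summed to 4.93 ± 0.791 FPKM (SD, n = 3). When members with at least 50% of their 75-nt words present in some other gene were left out, the log2 ratio was 8.95.

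The replacement H2A genes were led by H2afz, an H2A.Z gene, whose product marks promoters and regulatory regions. H2afz (ENSMUSG00000037894, chr3:137864487-137866922, plus strand) had 630.6, 650.7 and 561.1 FPKM, a mean of 614.1 ± 47.0 (SD, n = 3). Library 3 was the lowest, and the highest value lay below the lowest of H3f3b. H2afv, the other H2A.Z gene (ENSMUSG00000041126), had 48.0, 46.9 and 51.2 FPKM. H2afz exceeded H2afv by a factor of 13.1, 13.9 and 10.96, a log2 ratio of 3.66 ± 0.18 (SD, n = 3), and of 2.999 for fragments not divided by length. The exact sign-flip permutation test again gave p = 0.25, the smallest possible, and 0.25 after adjustment.

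H2afy and H2afy2 encode the macroH2A proteins, which carry a large extra domain and are known from silent chromatin. H2afy had 53.6, 52.1 and 55.2 FPKM, above H2afv in each library by a factor of 1.08 to 1.12. This order depends on the gene length used and reverses with the longest isoform. The mean isoform length was 1463 bases for H2afy, with a longest isoform of 4018, and 1076 for H2afv, with a longest of 1633. H2afy2 had 6.63, 7.90 and 7.58 FPKM, so H2afy exceeded it by a factor of 7.31 ± 0.744 (SD, n = 3). H2afy2 has 1 isoform, of 2175 bases, so the size of this factor depends on the length used for H2afy. H2afy3 is annotated as a processed pseudogene and had 0.748, 0.837 and 0.629 FPKM.

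H2afx, whose protein is phosphorylated around DNA breaks, had 20.7, 20.2 and 19.1 FPKM. H2afz exceeded it by a factor of 30.7 ± 1.48 (SD, n = 3). H2afj had 14.0, 14.5 and 12.9 FPKM, below every value of H2afx. The testis genes H2afb1, H2afb2 and H2afb3, for short H2A variants, were listed at 0 in every library.

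Over the family, the 10 replacement H2A genes summed to 774.3, 793.0 and 707.7 FPKM, and the 20 replication-dependent H2A genes to 3.39, 2.78 and 4.13. The ratio was 228.2, 285.1 and 171.2, a log2 ratio of 7.80 ± 0.37 (SD, n = 3). The replication-dependent sum rests on 89 fragments over all libraries, and H2afz is the highest of the replacement H2A genes. With H2afx counted as replication-dependent, the log2 ratio was 4.97.

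The linker histone H1f0, which is known to build up in differentiated and resting cells, was the third highest member. H1f0 (ENSMUSG00000096210, chr15:79028450-79030504, plus strand) had 291.5, 293.2 and 296.2 FPKM, a mean of 293.6 ± 2.40 (SD, n = 3). H3f3b, H2afz and H1f0 together made up 87.1% ± 0.635 (SD, n = 3) of the replacement FPKM. The other replacement H1 genes were at or near 0. H1foo, known from oocytes, was listed at 0, and H1fnt, known from spermatids, had 1, 2 and 0 fragments.

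H1fx, a linker histone gene of many cell types, was at 0 fragments in every library, which allows up to 3 fragments or 0.171 to 0.177 FPKM. Its annotated transcript of 1217 bases holds a poly(A) signal, and 237 of its bases overlap the genes Gm47286 and Gm5577. Neither overlapping gene was high, with Gm47286 at 0 and Gm5577 at 0.0580 ± 0.0587 FPKM (SD, n = 3). H2bfm, the only replacement H2B gene in the list, was at 0 too, and the rule found no replacement H4 gene.

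**Figure D2:**
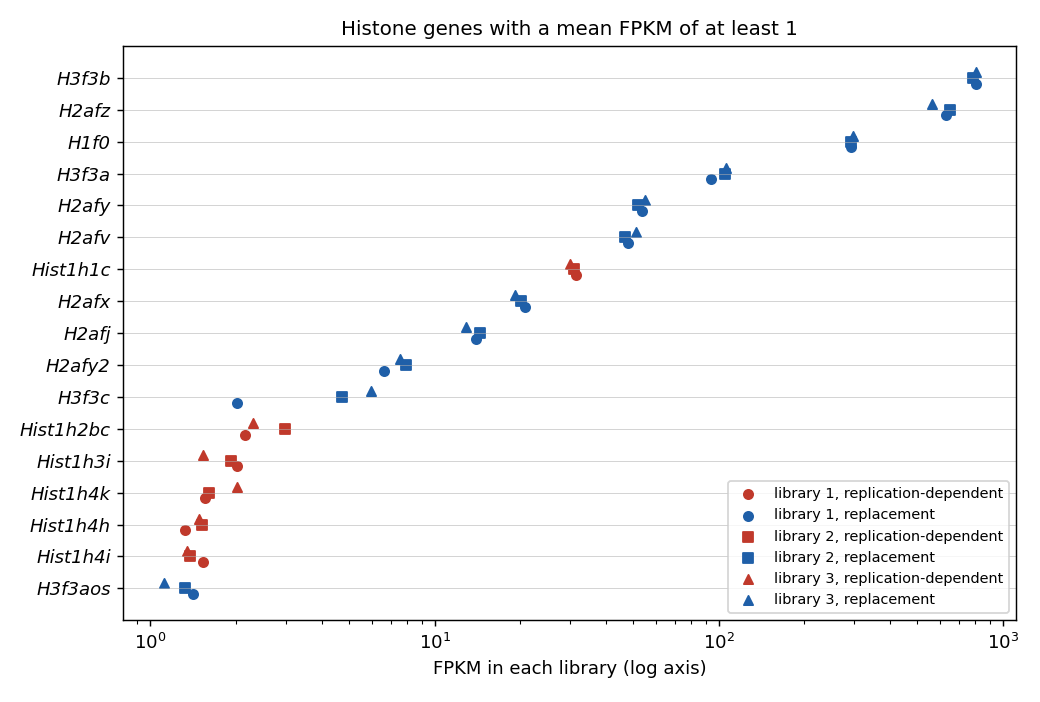
FPKM in library 1 (circles), library 2 (squares) and library 3 (triangles) on a log axis for the 17 histone genes that average 1 FPKM or more, ordered by mean, with replacement genes in blue and replication-dependent genes in red. Hist1h1c, at 30.0 to 31.4, is the single red gene among the 10 highest, and the points of H3f3c are the most widely spread, from 2.02 to 5.95.

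Hist1h1c, a linker histone gene of the cluster on chromosome 13, stood apart from the other replication-dependent genes. Hist1h1c (ENSMUSG00000036181, chr13:23738808-23740367, plus strand) had 31.4, 30.9 and 30.0 FPKM, a mean of 30.8 ± 0.686 (SD, n = 3) on 706, 672 and 670 fragments. It held 55.8% ± 0.692 (SD, n = 3) of the FPKM of its class. Without it, the log2 ratio of replacement over replication-dependent genes rose to 6.33 ± 0.02 (SD, n = 3). Leaving it out was decided with its value known. H1f0 lay above Hist1h1c by a factor of 9.29, 9.50 and 9.87.

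The other 5 replication-dependent H1 genes stayed at or below 0.583 FPKM on average. Hist1h1e had the highest mean of them, on 48 fragments over all libraries, and Hist1h1t, known from spermatocytes, was at 0. Within H1, the log2 ratio of replacement over replication-dependent genes was 3.20 ± 0.05 (SD, n = 3), and 7.96 ± 0.34 without Hist1h1c. The low ratio of summed FPKM in H1 beside H2A and H3 thus rests on that gene, which was left out with its value known. As a difference of mean log2(FPKM + 1), H1 was also the lowest, at 1.00 beside 3.08 for H2A and 4.53 for H3. That measure was not recomputed without Hist1h1c.

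The replication-dependent H2B genes were led by Hist1h2bc, with 2.16, 2.97 and 2.30 FPKM on 36, 48 and 38 fragments. Its annotated transcript of 1156 bases is spliced across a gene that runs from 23684199 to 23692908 on chromosome 13, and the stem-loop pattern was not found in it. Hist2h2be (ENSMUSG00000068854, chr3:96221119-96223738, plus strand) was next by mean, with 1.06, 0.957 and 0.934 FPKM on 110 fragments over all libraries. Hist1h2bg had 0.898, 0.232 and 1.02 FPKM on only 8, 2 and 9 fragments. All 18 H2B genes together reached 6.23 ± 0.156 FPKM (SD, n = 3), and their median was 0.153.

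Replication-dependent H4 genes had the highest median of the core histones, 0.495 FPKM, and each of the 13 had at least 1 fragment. Hist1h4k had 1.56, 1.61 and 2.02 FPKM, Hist1h4h 1.33, 1.52 and 1.49, and Hist1h4i 1.53, 1.38 and 1.35. The ranges of Hist1h4h and Hist1h4i overlap, and each gene rests on no more than 16 fragments in any library, so the 3 cannot be ordered. Hist2h4 had 0.851, 0.967 and 0.943 FPKM on 64 fragments, and Hist1h4n had 1.13, 0.666 and 0.488 on 14. The H4 genes summed to 8.53 ± 0.211 FPKM (SD, n = 3), which was 15.5% ± 0.565 of the class.

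Among replication-dependent H3 genes, Hist1h3i was highest, with 2.02, 1.92 and 1.53 FPKM on 12, 11 and 9 fragments. Hist1h3g followed by mean, with 1.05, 0.405 and 0.659. The 20 H2A genes were the lowest family, with a median of 0.119 FPKM and no gene at 1 FPKM. The highest means were those of Hist1h2al, which is annotated as a processed pseudogene, with 0.818, 0.423 and 0.825 FPKM on 10 fragments, and of Hist1h2ae, with 0.985, 0.509 and 0.496 on 20. The ranges of this pair overlap, so neither can be called the higher. The germ-line genes Hist1h2aa and Hist1h2ba were at 0 in every library.

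By cluster, the 56 Hist1 genes on chromosome 13 carried 52.5 ± 0.676 FPKM (SD, n = 3) and the 10 Hist2 genes on chromosome 3 carried 2.34 ± 0.0568. The pair of Hist3 genes on chromosome 11 carried 0.202 ± 0.0564 FPKM. Hist3h2a had the higher mean, with 0.0646, 0.267 and 0.163, but Hist3h2ba, with 0.113, 0 and 0, was above it in library 1. Hist4h4, the only Hist4 gene, on chromosome 6, had 0.0484, 0.0250 and 0.122 FPKM on 8 fragments. The order of the clusters by summed FPKM follows their number of genes.

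The annotated 3′ end of the replication-dependent genes fell into groups of equal size. In 23 genes the annotated transcript ended within 100 bases of the stem-loop, in 23 it ran further, and in 23 the pattern was not found. A site beyond the annotated end cannot be found in this way. Some transcripts without the pattern are short, such as Hist1h4k with 312 bases and Hist1h2bl with 381, so the last group is not shown to lack a stem-loop. The limit of 100 bases was chosen after the values were seen. Genes that ended near the stem-loop had a median of 0.145 FPKM, and 1 of 23, Hist1h4h, reached 1 FPKM. Genes that ran further had a median of 0.263 FPKM, and 2 of 23, Hist1h1c and Hist1h4i, reached it. Genes without the pattern had a median of 0.186 FPKM, and 3 of 23 reached it. In FPKM, which divides by annotated length, the medians thus lay close together, below that of protein-coding genes in each group. Detection differed more. FPKM above 0 in every library was found for 8 of 23 genes that ended near the stem-loop. It was found for 20 of 23 that ran further and 10 of 23 without the pattern, beside 61.1% of protein-coding genes. The median gene of these groups had 3, 14 and 3 fragments over all libraries. The part of annotated length in these differences was not tested.

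The replication-dependent genes were also divided by the poly(A) signal. Of 17 replication-dependent genes with the signal, 3 had a mean of at least 1 FPKM (Hist1h1c, Hist1h4h and Hist1h4i), and of 52 without it also 3 (Hist1h2bc, Hist1h3i and Hist1h4k). Their medians were 0.259 and 0.185 FPKM. FPKM above 0 in every library was found for 12 of the 17 and 26 of the 52 genes, beside 61.1% of protein-coding genes. The median gene had 15 fragments over all libraries with the signal and 4.5 without it. The part of annotated length in these values was not tested. The 52 genes include short annotated transcripts such as Hist1h4k, so they are not shown to lack a signal beyond the annotated end. Summed, the 17 genes carried 38.7, 37.9 and 36.9 FPKM and the 52 carried 16.7, 17.6 and 17.4, but without Hist1h1c the first sum was 7.32, 7.05 and 6.89. Hist1h1c and H2afx have nearly the same layout, with 840 and 822 bases between stem-loop and annotated end. They were also the 2 highest genes with a stem-loop, at 30.8 ± 0.686 and 20.02 ± 0.812 FPKM (SD, n = 3). Hist4h4, which also has a signal and 2445 bases beyond the stem-loop, had a mean of 0.0652 FPKM.

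**Figure D3:**
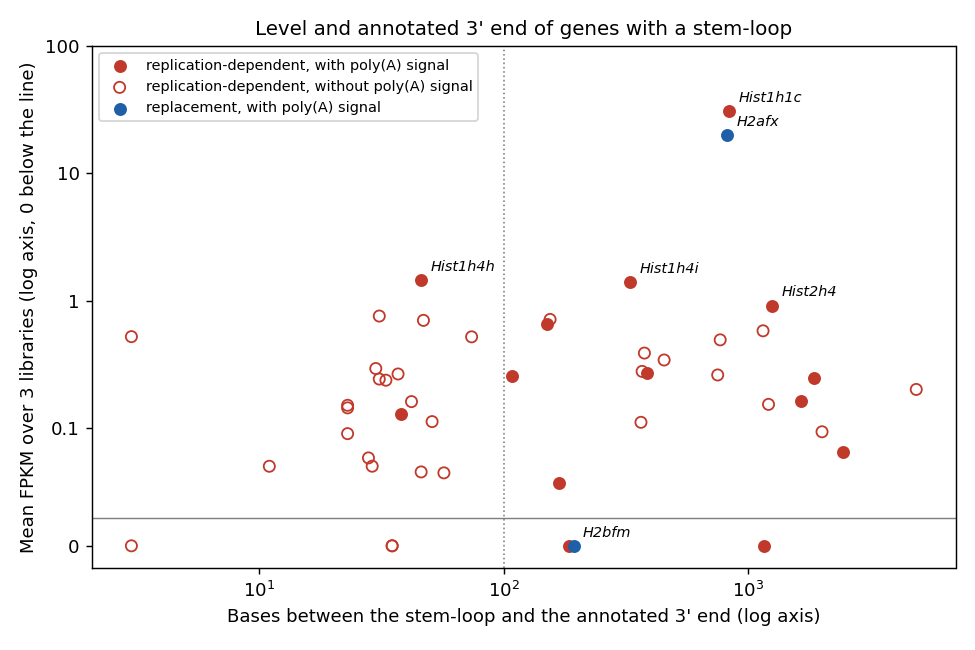
Mean FPKM over 3 libraries (y axis, log scale, with genes at 0 below the grey line) against the bases between the stem-loop and the annotated 3′ end (x axis, log scale) for the 46 replication-dependent (red) and 2 replacement genes (blue) that hold the pattern. Filled points have a poly(A) signal in the last 50 bases, the dotted line marks 100 bases, and Hist1h1c and H2afx, at 840 and 822 bases, stand above all other points.

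Of the 88 members, 17 were at 0 in every library, 11 of them replication-dependent and 6 replacement. Of all genes listed 52.9% were at 0, and of protein-coding genes 28.2%. Of the 11 replication-dependent genes at 0, 6 lie in the Hist2 cluster. In 5 of these, Hist2h2aa1, Hist2h2aa2, Hist2h2bb, Hist2h3b and Hist2h3c1, every exon base also lies in an exon of another annotated gene, and no other member is overlapped in full. These 5 share 100% of their 75-nt words with other annotated genes, a figure that counts the overlapping genes too and is no separate result. How reads that fall on several genes were treated is not stated, so absence of their mRNA and loss of its reads cannot be told apart.

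Antisense genes over Hist2h2aa1 and Hist2h2aa2 did hold fragments. Gm20633, over Hist2h2aa1, had 2.72, 2.56 and 3.31 FPKM on 111, 101 and 134 fragments. Gm20632, over Hist2h2aa2, had 3.54, 3.96 and 3.43 FPKM on 124, 134 and 119 fragments. In each library either gene held more fragments than any replication-dependent histone gene other than Hist1h1c. Gm20628, over Hist2h2bb and Hist2h3b, had 3, 2 and 1 fragments. Gm42743, which overlaps Hist2h2bb on the same strand, had 18, 17 and 19 fragments. Whether the fragments of Gm20633 and Gm20632 come from histone mRNA was not tested.

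Replication-dependent genes resemble each other in sequence, and a read from a shared stretch cannot be assigned to 1 gene. Of the 69 genes, 32 shared at least 50% of their 75-nt words, on either strand, with a transcript of another gene, against 1 of 19 replacement genes, H3f3c. Such other genes include any annotated over the same exons. Of the 32 genes, 17 are overlapped by another annotated gene in at least 1 exon base, against 9 of the other 37. The count therefore does not separate resemblance between histone genes from overlap in the annotation. The 32 genes had a median of 0.157 FPKM, and the other 37 a median of 0.259. The 5 genes that shared no word with any other gene, Hist1h1a, Hist1h1b, Hist1h1t, Hist2h2be and Hist2h4, had a median of 0.348 FPKM, with a highest mean of 0.983. The part of shared sequence in these levels was not tested. Without the genes that share at least 50% of their words, the log2 ratio of replacement over replication-dependent genes was 5.41 ± 0.03 (SD, n = 3).

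Most detected histone genes varied between libraries by less than 1.5 times counting error. Among the 17 histone genes that average 1 FPKM or more, the median coefficient of variation was 6.75%, beside 4.35% for the 12905 genes over that limit. In 4 genes it exceeded 1.5 times that of counting error alone. H3f3c had 47.5% against 20.1%, H2afz 7.65% against 1.29%, H3f3a 6.66% against 2.72% and H3f3b 1.21% against 0.757%. H1f0 varied by 0.818% against 1.08% and Hist1h1c by 2.23% against 3.83%, so both varied by less than counting error. Other genes lay further below it, among them Hist1h4h with 7.22% against 32.2% and Hist1h4i with 6.75% against 26.1%. With 3 libraries such values do not single out a gene as stable.

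The pseudogene H3f3c shares 59.9% of its words with other genes, of which H3f3a alone holds 57.3%. H3f3a had 87.8, 98.5 and 99.1 fragments per 1000000 counted, and H3f3c 0.832, 1.93 and 2.45, with library 1 the lowest and library 3 the highest in both. The part of shared reads in this was not tested. H2afz had 430.7, 444.4 and 383.2 on the same scale. The 6 genes that share words with it had 26.5, 26.2 and 25.7 in all, nearly all of it in Tmcc1, and the sum with them still had a highest to lowest ratio of 1.15, beside 1.16 for H2afz alone. The part of shared sequence in the low H2afz of library 3 was not tested further.

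**Figure D4:**
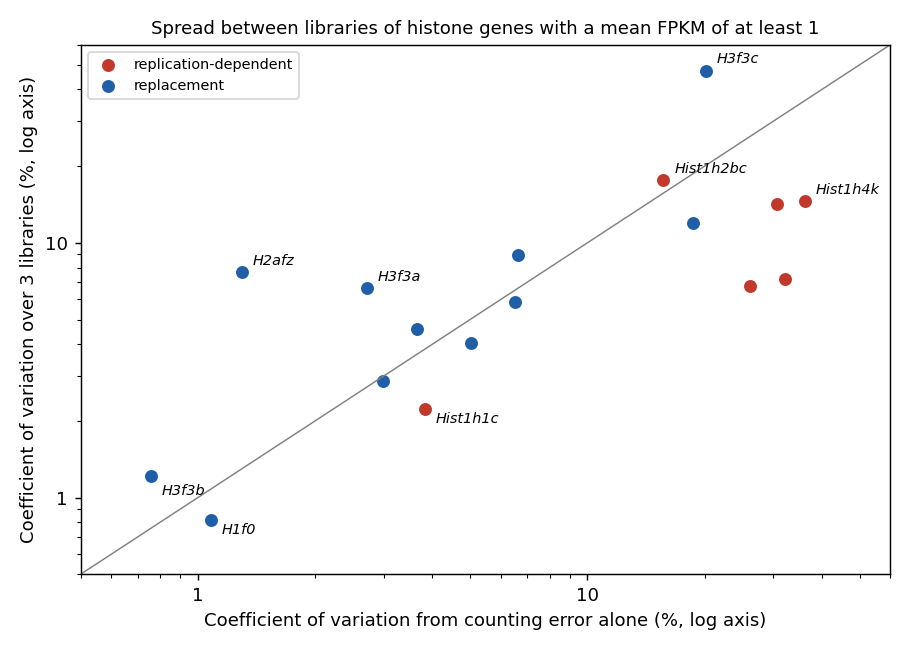
Coefficient of variation of FPKM over the 3 libraries (y axis, percent, log scale) against that expected from counting error alone (x axis, percent, log scale) for the 17 histone genes that average 1 FPKM or more, with the grey line where both are equal. H2afz (7.65% against 1.29%), H3f3a and H3f3c lie furthest above the line, and H1f0 and Hist1h1c are among the genes below it.

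Genes that work with histones were read from lists. All 12 genes of an S-phase list had a mean FPKM of at least 1, from 9.85 ± 0.208 for Cdc6, which loads the replicative helicase, to 166.0 ± 2.27 for Pcna, the sliding clamp (SD, n = 3). The median of that list was 76.2 FPKM. A mean of at least 1 FPKM was reached by 23.2% of all genes and 49.2% of protein-coding genes, beside which this count and those of the next lists are to be read. The 12 genes thus all stood above each replication-dependent histone gene but Hist1h1c. Of 16 genes for histone mRNA processing, 15 reached 1 FPKM, with a median of 30.6. Slbp, which encodes the stem-loop binding protein, had 31.0, 32.5 and 32.6 FPKM, a mean of 32.1 ± 0.905 (SD, n = 3). Its range overlaps that of Hist1h1c, which was the higher of the pair in library 1, so the pair cannot be ordered. The highest of the list was Snrpb, a shared spliceosomal protein, with 257.4 ± 1.41, and the lowest Zfp473, a factor of the same processing complex, with 0.519 ± 0.0545. Of 20 genes for histone chaperones and exchange, 19 reached 1 FPKM. The list ran from 0.567 ± 0.0724 for Srcap, an ATPase that deposits H2A.Z, to 835.1 ± 8.04 for Npm1, a nucleolar chaperone.

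Other RNAs that are made without a poly(A) tail were read in the same way. Of 11 such genes, 7 were at 0 in every library, beside 52.9% of all genes, and 1 reached 1 FPKM, beside 23.2% of all genes. With so few genes, these counts lie near the share over all genes and show nothing particular to the list. That gene was Rn7sk, an abundant nuclear RNA that holds back transcription elongation, with 9.08 ± 2.38 FPKM (SD, n = 3). The median of the list was 0, as was the median of all genes listed. The label of the cells was checked as well. Of 10 fibroblast genes, 9 reached 1 FPKM, from Fn1 at 4377 ± 86.1 down, and Lum was listed at 0, while none of 10 retina genes did, the highest being Rcvrn at 0.363 ± 0.225 (SD, n = 3).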

How the data were processed

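UMI-RNAseq was analysed from 3 libraries of untreated NIH3T3 cells. Per the methods and the submitters' processing notes, UMIs were read with UMI-tools 1.0.0, reads were mapped with HISAT2 2.0.4, duplicates with the same UMI were removed, and reads were counted per gene with HTSeq 0.6.1. The notes also name DESeq 1.10.1. The authors divided the counts by gene length and library total and deposited FPKM, 1 column per library, with replicates not pooled. The build, annotation and strand setting behind the counts are not given in the sources used here. Both deposited tables hold identical values, and 0 columns of values were left unused.

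Count models were not run on FPKM. Using Python 3.11.15 with numpy 2.4.6 and pandas 2.3.3, fragments were computed as FPKM multiplied by mean isoform length in GENCODE M21 (GRCm38) and by the library total, which was read from genes with 1 isoform. They were whole within 0.001 for 99.2% of 26178 genes and for all 88 members, and the recovery was tested on simulated fragments. Of the gene IDs, 55480 matched GENCODE M21. Coordinates, transcripts, stem-loops, poly(A) signals and shared 75-nt words come from GENCODE M21. Exact intervals used scipy 1.17.1, zeros a floor of 3 fragments, and figures matplotlib 3.10.9.

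Class was set by name. Named were all replacement genes, the 12 highest replication-dependent genes, the highest of each family and cluster, the 5 most variable members, germ-line members and the ends of each list. Genes named for overlaps, shared words or printed sequences were picked with their values known. The members and lists were chosen with earlier results of these data known. Ratios of single genes were tested with an exact sign-flip permutation test. Alternatives covered replicates, scaling, gene length, limits, class, shared words and a pseudocount of 1.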

Additional observations from a re-analysis of the deposited data

How the results depend on the processing

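Of 71 values recomputed under the alternatives, 23 moved by more than 1 SD over libraries or, for counts, by more than 1.5 times, and 0 reversed in sign. The other 48 include the pair ratios, which were judged by sign alone. Of these, H3f3b over H3f3a rose from 2.97 to 3.69 with fragments not divided by length and to 3.87 with the longest isoform, and H2afz over H2afv fell from 3.66 to 2.999 with fragments not divided by length. The log2 ratio of replacement over replication-dependent genes was 5.15, and it became 5.19 with fragments not divided by gene length, 4.57 with the longest isoform, 4.69 with H2afx counted as replication-dependent, 5.41 without members sharing at least 50% of words, 2.77 as a difference of mean log2(FPKM + 1), 5.16 with protein-coding members only and 6.33 without Hist1h1c, the last 2 chosen after seeing the data. For H1 it was 3.20, and became 3.57 with fragments not divided by length, 1.00 as a difference of mean log2(FPKM + 1) and 7.96 without Hist1h1c. For H2A it was 7.80, and became 8.21, 7.15 with the longest isoform, 4.97 with H2afx moved, 8.75 without shared words and 3.08 as a difference of means. For H3 it was 7.53, and became 8.82, 6.75, 8.95 and 4.53 under length, isoform, shared words and difference of means. The 6 replication-dependent genes over the limit became 11 in TPM, 47 at a limit of 0.1, 1 at a limit of 10 and 38 with FPKM above 0 in every library. Leaving out a replicate gave 6 to 7 such genes. The cause of these moves was not tested, apart from what each setting changes by construction. No paired analysis was possible because the samples form a single group, and the ratio tests compare genes within a library.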
